A study of Homo sapiens with 6 samples.

Results

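The genes described here are 8 growth arrest and damage response genes: CDKN1A, BTG2, GADD45A, GADD45B, SESN2, MDM2, PPM1D and BBC3. They were followed through ATAC-seq peak lists of K562 cells, an established human leukaemia line. A listed interval, that is a stretch of DNA that the peak caller reported as open in 1 library, was assigned to a gene when it came within 2 kb of the gene's start site on hg19. By this rule 24 intervals, which merge into 8 regions, belonged to the 8 genes, out of 17466 merged regions in the 6 lists together. There were 6 groups of 1 library each. The vector control line, a line that overexpresses wild-type SLFN11 and a line that overexpresses SLFN11 with the E669Q substitution were each kept in DMSO or exposed for 4 h to camptothecin (CPT) at 1000 nM. Libraries are named below by line and treatment, as in wild-type/CPT for the line with wild-type SLFN11 under camptothecin. The labels do not say which promoter drove SLFN11 or whether a line was a single clone. SLFN11 is recruited to stressed replication forks, E669Q lies in its ATPase domain, and camptothecin traps topoisomerase I on DNA. With 1 library per group no difference has a replicate check, and every interval printed below covers counting error only.

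These genes make up the part of the DNA damage response that slows or ends cell growth. In cells with intact p53, DNA damage stabilises this transcription factor, which switches on arrest genes, apoptosis genes and its own inhibitors. K562 lacks functional p53, so that route is not available to these genes here. Their promoters can be open without the gene being strongly transcribed, and ATAC-seq reports the opening and not the RNA.

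The start sites, on hg19, were at 36646459 on chromosome 6 for CDKN1A, 203274664 on chromosome 1 for BTG2, 68150883 on chromosome 1 for GADD45A and 2476123 on chromosome 19 for GADD45B. Those of SESN2, MDM2, PPM1D and BBC3 were at 28585963 on chromosome 1, 69201971 on chromosome 12, 58677544 on chromosome 17 and 47736023 on chromosome 19. RefSeq promoter sequences of GRCh38.p14 were matched by symbol for 7 of the 8 genes. The 250 bases upstream of the start are shown for the genes that had an open region, together with CDKN1A, which had none, and with both MDM2 promoters. Capitals mark matches on either strand to 8 motifs searched: the GC box, the CCAAT box, the TATA box, the cyclic AMP response element, the E-box, the AP-1 site, the GATA site and the p53 decamer.
CDKN1A (chr6:36678464-36678713): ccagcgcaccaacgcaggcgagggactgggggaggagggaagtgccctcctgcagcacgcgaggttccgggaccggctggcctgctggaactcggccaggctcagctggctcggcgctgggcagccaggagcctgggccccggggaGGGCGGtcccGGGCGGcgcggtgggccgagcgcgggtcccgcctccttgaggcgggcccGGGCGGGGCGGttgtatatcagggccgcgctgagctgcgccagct
BTG2 (chr1:203305269-203305518): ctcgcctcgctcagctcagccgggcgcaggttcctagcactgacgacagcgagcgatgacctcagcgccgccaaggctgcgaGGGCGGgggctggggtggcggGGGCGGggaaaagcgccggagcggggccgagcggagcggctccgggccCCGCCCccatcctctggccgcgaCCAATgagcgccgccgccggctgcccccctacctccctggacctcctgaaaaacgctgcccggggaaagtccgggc
GADD45B (chr19:2475877-2476126): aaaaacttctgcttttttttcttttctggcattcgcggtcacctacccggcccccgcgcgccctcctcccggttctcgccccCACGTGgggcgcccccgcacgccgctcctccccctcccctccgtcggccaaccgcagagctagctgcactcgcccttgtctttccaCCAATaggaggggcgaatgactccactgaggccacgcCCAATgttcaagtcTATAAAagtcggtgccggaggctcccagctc
SESN2 (chr1:28259268-28259517): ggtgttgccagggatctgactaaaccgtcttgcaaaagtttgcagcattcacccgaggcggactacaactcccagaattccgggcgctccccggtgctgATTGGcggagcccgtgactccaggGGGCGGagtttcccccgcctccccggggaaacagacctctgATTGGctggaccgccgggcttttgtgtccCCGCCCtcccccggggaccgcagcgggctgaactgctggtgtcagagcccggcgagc
MDM2 P1 (chr12:68807922-68808171): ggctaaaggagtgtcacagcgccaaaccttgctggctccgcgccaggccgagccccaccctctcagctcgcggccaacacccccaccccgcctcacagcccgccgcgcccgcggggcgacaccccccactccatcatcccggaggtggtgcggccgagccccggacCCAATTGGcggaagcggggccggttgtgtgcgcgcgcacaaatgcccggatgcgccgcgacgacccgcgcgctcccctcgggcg
MDM2 P2 (chr12:68808767-68809016): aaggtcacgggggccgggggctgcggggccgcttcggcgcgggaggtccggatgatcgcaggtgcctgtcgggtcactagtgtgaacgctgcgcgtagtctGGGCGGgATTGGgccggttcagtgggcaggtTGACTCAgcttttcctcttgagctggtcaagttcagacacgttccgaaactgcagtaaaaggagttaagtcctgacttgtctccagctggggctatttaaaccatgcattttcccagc
PPM1D (chr17:60599943-60600192): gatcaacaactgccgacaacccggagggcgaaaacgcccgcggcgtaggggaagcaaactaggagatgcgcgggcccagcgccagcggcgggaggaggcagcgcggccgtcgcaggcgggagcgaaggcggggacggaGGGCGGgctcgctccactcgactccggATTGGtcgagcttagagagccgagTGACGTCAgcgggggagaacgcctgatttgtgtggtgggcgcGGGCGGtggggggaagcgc
The coordinates of these windows are on GRCh38, plus strand for all of those shown, and are not those of the peak lists. The CCAAT box, searched as CCAAT, was found in 6 of the 7 windows (MDM2 counted by P1), against 32.0% of 35114 promoter windows of the same length. CDKN1A had no CCAAT box and BBC3 had 1. The GC box, searched as GGGCGG, was in 4 of the 7, against 42.6% of all windows, and CDKN1A alone held 4 matches. The cyclic AMP response element, searched as TGACGTCA, occurred in PPM1D only of the 7, 61 bases upstream of the start, and in 1.65% of all windows. The TATA box, searched as TATAAA, occurred in GADD45B only of the 7, 31 bases upstream, and in 10.7% of all windows. The E-box, searched as CACGTG and in 6.35% of all windows, was in GADD45B and BBC3. The AP-1 site, searched as TGANTCA and in 6.57% of all windows, was in BBC3 and in the P2 window of MDM2. The GATA site, searched as GATAAG (5.65% of all windows), and the p53 decamer (5.57%) occurred in none of the 7. The decamer was searched as RRRCWWGYYY with no mismatch, where R is A or G, W is A or T and Y is C or T. The P2 window of MDM2 had no match either. A p53 site with a mismatch or outside the 250 bases would be missed, so these windows are not shown to lack p53 sites. The 2 CCAAT matches of MDM2 P1 overlap each other, as do 2 GC boxes of CDKN1A, and no match overlaps one of another motif in the windows shown. GC content of the windows shown ran from 59.2% (MDM2 P2) to 76.4% (CDKN1A), and was 49.2% in the BBC3 window. The median over all windows was 58.0%.

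Read depth differed between the libraries and bears on every statement of presence. Relative to vector/DMSO, the shallowest, depth recovered from the deposited values was 1.09 in vector/CPT and in wild-type/CPT, 1.33 in E669Q/DMSO, 1.72 in wild-type/DMSO and 2.22 in E669Q/CPT. The summit pileup is the count over the highest point of an interval, and the depth-scaled pileup is that number divided by the relative depth. Counts are called fragments below, but the peak caller's settings are not given, so what was counted is not known. The Poisson intervals treat the counts as independent. These depths are estimates. Over the regions found in all 6 libraries the median summit pileup was 20 in both wild-type/DMSO and E669Q/CPT, though their recovered depths differ. Lists held 5246 to 12337 distinct intervals. The K562 label was checked at 9p21, where the line is known to lack the arrest gene CDKN2A: no library listed an interval on chromosome 9 between 21 and 23 Mb. This is a weak check, since 15 of 70 windows of 2 Mb on chromosome 9 were empty in all 6 libraries.

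Of the 8 genes, 6 had an open start site in at least 1 library, and CDKN1A and BBC3 had none in any. The number of genes with a listed interval was 2 in vector/DMSO, 1 in vector/CPT, 6 in wild-type/DMSO, 3 in wild-type/CPT, 5 in E669Q/DMSO and 6 in E669Q/CPT. The 2 shallowest libraries thus held the fewest genes and the 2 deepest the most. Of the 8 merged regions at these start sites, 3 (37.5%) were held by vector/DMSO, against 29.7% of all merged regions of the series. The shares were 12.5% against 32.7% in vector/CPT, 75.0% against 65.7% in wild-type/DMSO and 37.5% against 31.4% in wild-type/CPT. In E669Q they were 62.5% against 46.9% with DMSO and 75.0% against 69.2% with CPT. With 8 regions, no share is read as set apart from the background. That background holds all merged regions and is not limited to start sites. No share of all gene start sites is given, for want of an hg19 annotation, so 6 of 8 is not read as particular to these genes. When each library was scaled to the shallowest depth, the counts of genes became 2, 1, 5, 2, 4 and 3 in the same order, so that E669Q/CPT moved from 6 to 3. The whole E669Q/CPT list went from 12337 to 6016 intervals under the same scaling.

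**Figure D1:**
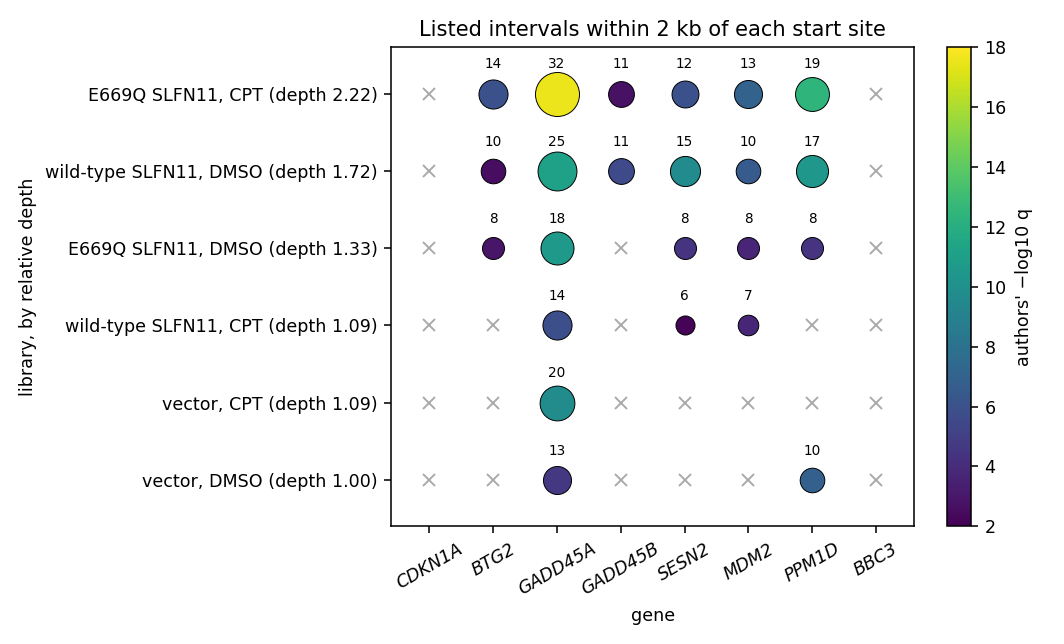
Listed intervals within 2 kb of the 8 start sites (columns) in the 6 libraries (rows, by relative depth). Circle area and the number above give the summit pileup in fragments, colour gives the authors' −log10 q, and a cross means not listed. GADD45A was listed in all 6 libraries, CDKN1A and BBC3 in none.

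**Figure D2:**
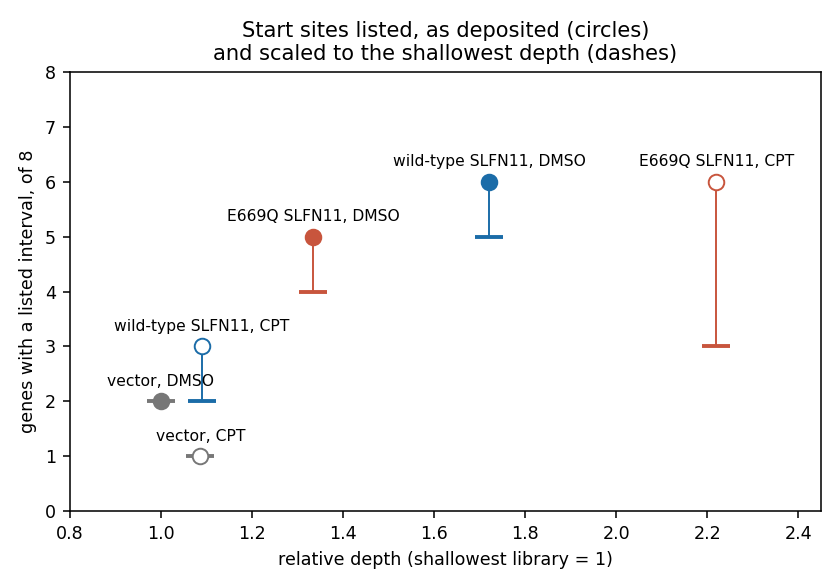
Number of the 8 genes with a listed interval at the start site (vertical axis) against relative depth (horizontal axis), 1 point per library, filled for DMSO and open for CPT. Dashes give the number after scaling to the shallowest depth, which took E669Q/CPT from 6 to 3.

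The open start sites lay close to the annotated starts. Of the 24 intervals, 22 had their strongest summit at or upstream of the start and 2 downstream, and the median summit was 64.5 bases upstream. The start base itself was covered by 15 of the 24. Widths ran from 114 to 483 bp. The authors' fold enrichment over local background was 3.91 to 8.65, with a median of 5.94, and the median summit pileup was 12 fragments. Ranked within its own list by −log10 p, the median member interval stood at percentile 50.1, with a range from 5.95 (SESN2 in wild-type/CPT) to 95.03 (GADD45A in E669Q/CPT). The ranks were spread over the lists: 5 of the 24 intervals stood under percentile 25, 12 from 25 to 75 and 7 above 75. The member interval nearest the 2 kb limit on the inner side was a GADD45A interval starting 1581 bases downstream, and the nearest on the outer side a BTG2 interval starting 6453 bases downstream.

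**Figure D3:**
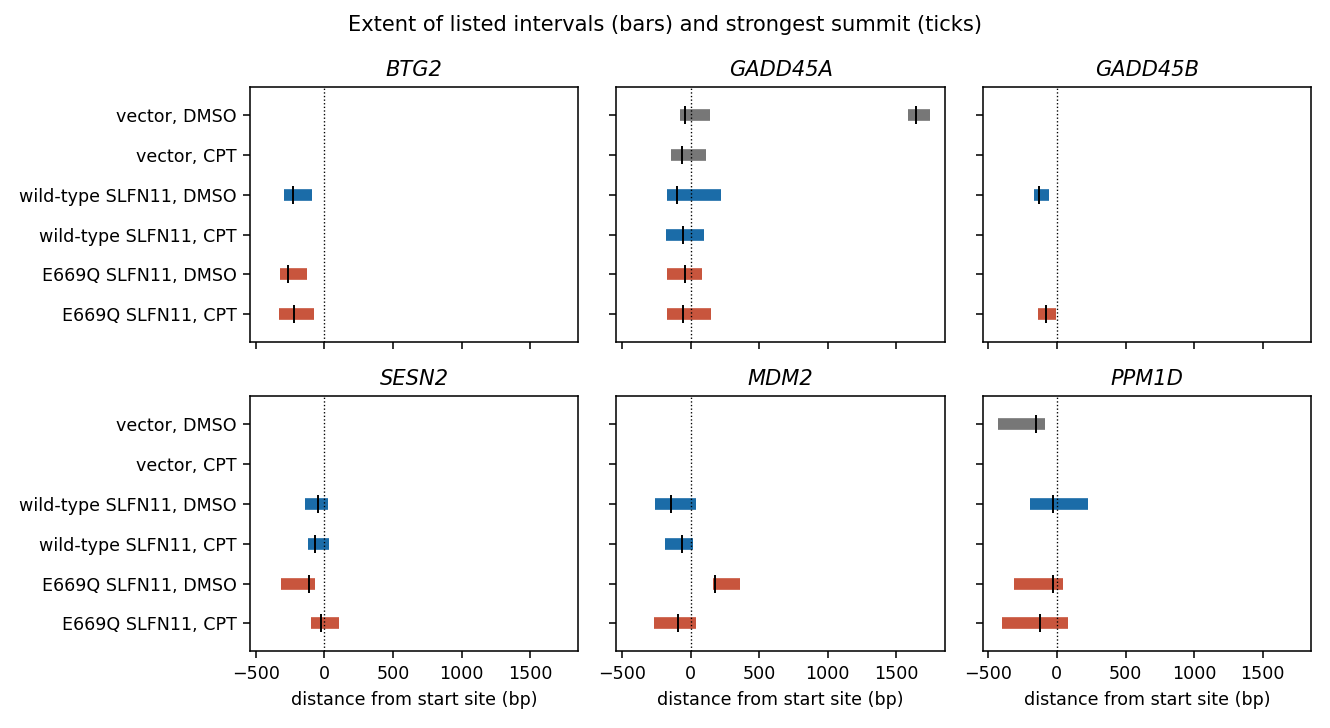
Extent of each listed interval (bars) and its strongest summit (ticks) around the start site (dotted line, 0 bp) of the 6 genes with a listed interval, by library. Most bars lie close to the start, the exception being the GADD45A interval of vector/DMSO at 1581 to 1743 bases.

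CDKN1A encodes p21, the inhibitor of cyclin-dependent kinases that holds cells in G1. No library listed an interval within 20 kb of its start. The nearest interval was 131 kb away in vector/DMSO and 236 kb in vector/CPT. In the SLFN11 lines it was 84.0 to 84.3 kb away in each library. Whether these intervals form a single region was not examined. Nor was it tested whether the vector libraries could list it at their depth, so no difference between lines is read from these distances. The lists hold only sites past the caller's threshold, so openness of CDKN1A below it was not measured, with CPT or without.

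BTG2 encodes an antiproliferative protein that promotes mRNA deadenylation. Its start site was listed in wild-type/DMSO (fold 3.95, −log10 q 2.52), E669Q/DMSO (4.63 and 2.88) and E669Q/CPT (5.62 and 5.96), and in neither vector library. Summit pileups were 10, 8 and 14 fragments. Divided by depth these were 5.81, 5.99 and 6.31, which lie within each other's 95% Poisson intervals. Scaled to the 3 libraries without it, BTG2 would have 6.06 fragments in vector/DMSO, 6.59 in vector/CPT and 6.61 in wild-type/CPT, where 7 were needed to be listed. Its absence there was therefore not detectable as a difference at this depth. All 3 intervals ended 73 to 128 bases upstream of the start.

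GADD45A, a small stress-induced protein that binds cell cycle and signalling partners, had the only start site open in all 6 libraries, a property of 12.3% of all merged regions. Its summit pileups were 13 in vector/DMSO, 20 in vector/CPT, 25 in wild-type/DMSO, 14 in wild-type/CPT, 18 in E669Q/DMSO and 32 in E669Q/CPT. In raw fragments the 2 deepest libraries were highest. Per depth the same sites had 13.0, 18.4, 14.5, 12.8, 13.5 and 14.4 fragments, so vector/CPT stood highest and the other 5 lay between 12.8 and 14.5. The authors' fold was 5.19, 6.97, 6.35, 5.91, 8.004 and 8.03 in the same order. The local background around GADD45A was 4.66 to 8.29 times the lowest background of its library, above the 1.56 to 4.47 times at the other 5 genes.

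With CPT the depth-scaled pileup at GADD45A changed on the log2 scale by 0.50 in the vector line (95% interval −0.51 to 1.51), −0.18 in the wild-type SLFN11 line (−1.12 to 0.77) and 0.10 in the E669Q line (−0.74 to 0.93). All 3 intervals include 0. The direction depended on the depth scale: when pileups were divided instead by the library's median summit pileup over the regions found in all 6 libraries, the changes were 0.62, 0.03 and 0.32 in the same order, positive in each line. On the recovered depth the mean was 0.14 ± 0.34 (SD, n = 3 lines), with an exact two-sided sign-flip p of 0.75, also 0.75 after adjustment because GADD45A was the only gene tested. This design cannot give a p under 0.25, which is reached whenever all 3 lines change in the same direction. The 3 lines differ in genotype and are not replicates of one group, so the means and p-values describe these lines only. On the median scale the mean was 0.32 ± 0.30 (SD, n = 3 lines), with an exact two-sided sign-flip p of 0.25. On the recovered depth it was −0.04 without the vector line.

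GADD45B, a paralogue induced by cytokines and stress, was listed in the 2 deepest libraries alone, a pattern shared by 5.42% of all merged regions. Both summits held 11 fragments. The authors' fold was 5.98 (−log10 q 5.59) in wild-type/DMSO and 3.91 (2.69) in E669Q/CPT. Scaled to the other libraries GADD45B would have 5.58 to 7.45 fragments, where 7 or 8 were needed, so its absence there was not detectable as a difference. The interval of wild-type SLFN11 spanned 168 to 55 bases upstream of the start and that of E669Q/CPT 140 to 10.

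SESN2 encodes sestrin 2, a leucine and stress sensor that restrains mTORC1. Its start site was listed in each of the 4 libraries that carry SLFN11 but not in the vector lists, as were 3.09% of all merged regions. The summit pileup was 15 in wild-type/DMSO and 6 with CPT, and 8 in E669Q/DMSO and 12 with CPT. Per depth these were 8.71 and 5.50, then 5.99 and 5.41 fragments, with overlapping Poisson intervals (4.88 to 14.4 and 2.02 to 12.0 for wild-type SLFN11). The −log10 q was 9.66 and 2.15, then 4.40 and 5.98, highest in wild-type/DMSO. Scaled to the vector libraries, SESN2 would have 6.44 fragments with DMSO (95% interval 4.62 to 8.74) and 6.999 with CPT (5.02 to 9.49), where 6 were needed. The interval includes that number in both, so the absence from the vector lists is within counting error.

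MDM2 encodes the ubiquitin ligase that degrades p53, and is itself a p53 target through its internal promoter P2. The gene had a listed interval in those 4 libraries and in neither vector list, but at 2 separate places. Neither MDM2 region was thus in all 4, unlike that of SESN2. An interval at the upstream promoter P1 was found in wild-type/DMSO (pileup 10), wild-type/CPT (7) and E669Q/CPT (13). Per depth these were 5.81, 6.42 and 5.86 fragments. In E669Q/DMSO the listed interval lay 163 to 357 bases downstream of the start instead, with a pileup of 8, and overlapped none of the others. That region was in 1 library alone, as were 38.1% of all merged regions. Scaled to E669Q/DMSO, the P1 site would have 7.96 fragments (5.37 to 11.4), where 6 were needed. Scaled to E669Q/CPT, the downstream region would have 13.3 (5.75 to 26.2), where 8 were needed. Both intervals include the number needed, so the change of place between the E669Q libraries is within counting error. Scaled to the vector libraries, the P1 site would have 5.96 fragments with DMSO (4.02 to 8.51) and 6.48 with CPT (4.37 to 9.25), where 6 were needed, so this absence too is within counting error. The P2 start lies 845 bases downstream of P1 in the RefSeq annotation, and no MDM2 interval in any library ended more than 357 bases downstream of P1. The AP-1 match printed above is in the P2 window, 118 bases upstream of that start.

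PPM1D encodes WIP1, the phosphatase that switches off p53 and ATM signalling. Its start site was open in all 3 DMSO libraries and in E669Q/CPT, and missing from vector/CPT and wild-type/CPT. Summit pileups were 10 in vector/DMSO, 17 in wild-type/DMSO, 8 in E669Q/DMSO and 19 in E669Q/CPT. The authors' fold was 7.29, 7.90, 5.71 and 8.65, and the depth-scaled pileup 10.0, 9.87, 5.99 and 8.56, in that order. E669Q/DMSO was thus the lowest of the 4, and the others lay between 8.56 and 10.0. Scaled to the libraries without it, PPM1D would have 9.35 fragments in vector/CPT (95% interval 7.02 to 12.2) and 9.38 in wild-type/CPT (7.05 to 12.2), where 6 were needed. Both intervals lie above the number needed. That estimate uses only libraries in which PPM1D was listed, which raises it. The intervals also leave out the counting error of the library without the site, so the absence is not read as a difference. Of all merged regions held by these same 4 libraries, 9.93% were missing from both others, so the pattern was not rare. In the E669Q line PPM1D was listed under both treatments, with overlapping Poisson intervals of the depth-scaled pileup (2.59 to 11.8 with DMSO and 5.15 to 13.4 with CPT).

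BBC3 encodes PUMA, a BH3-only protein that triggers apoptosis. No interval lay within 2 kb of its start in any library. The nearest was 11.5 kb upstream in E669Q/CPT (fold 5.35, pileup 11), 23.8 to 24.4 kb upstream in 4 others, and 282 kb away in vector/DMSO.

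**Figure D4:**
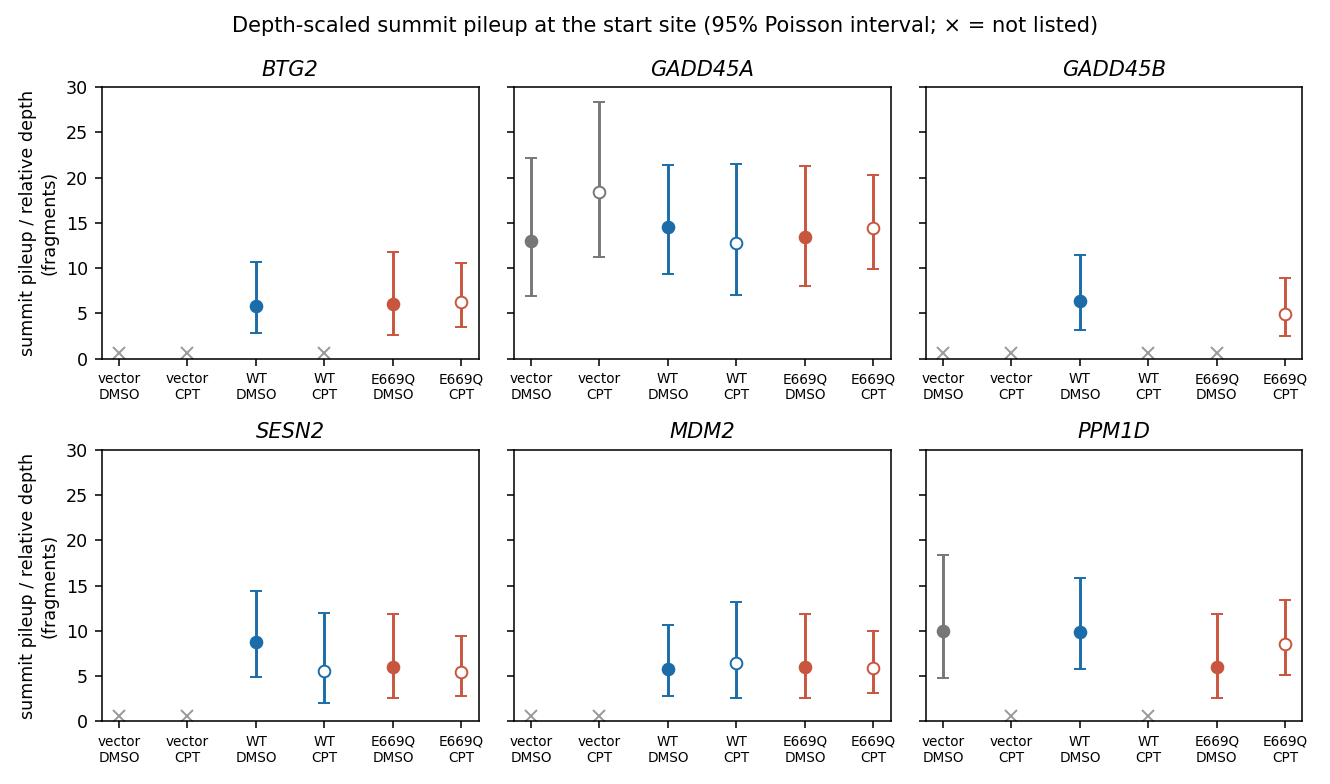
Summit pileup divided by relative depth (vertical axis, fragments) at the start sites of 6 genes by library, with 95% Poisson intervals, filled for DMSO and open for CPT. WT is wild-type SLFN11 and a cross means not listed. The MDM2 point of E669Q/DMSO is the separate region 163 to 357 bases downstream of the start, not the P1 site of the other MDM2 points. GADD45A lies between 12.8 and 18.4 and the other genes between 4.95 and 10.0.

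The start-site regions missing with CPT were few, and their shares are set beside those of all regions, not of start-site regions alone. In the wild-type SLFN11 line 3 of the 6 regions with DMSO (GADD45B, BTG2 and PPM1D) were missing with CPT, against 58.7% of all regions of that DMSO library. In the vector line 2 of 3 were missing (PPM1D and the GADD45A region 1581 bases downstream), against 37.4%. In the E669Q line 1 of 5 was missing (MDM2, whose interval lay at P1 with CPT), 20.0% against 17.8%. Regions listed with CPT alone numbered 0 of 3 in the vector pair, against 32.2% of all regions of that pair. They numbered 0 of 6 in the wild-type SLFN11 pair, against 6.16%, and 2 of 7 (GADD45B and MDM2 P1) in the E669Q pair, against 39.5%. GADD45B was thus the only gene of the 8 listed with CPT and not with DMSO in its line. It was listed in the deeper library of that pair.

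The vector and wild-type lines under CPT were read at equal recovered depth. Of the 3 member regions in either library, SESN2 and MDM2 P1 were in wild-type SLFN11 alone, GADD45A in both, and none in vector alone. Of all regions of this pair 27.8% were in wild-type SLFN11 alone and 30.6% in vector alone. With DMSO, 4 of 7 (GADD45B, BTG2, MDM2 P1 and SESN2) were in wild-type SLFN11 and not in vector, against 57.5%, at a depth of 1.72. The GADD45A region 1581 bases downstream was in vector/DMSO and not in wild-type SLFN11 or E669Q, which is 14.3% of 7 against 6.16%, and 1 of 6 against 1447 of all 9644 regions of the pair with E669Q. In E669Q/DMSO 3 of 6 (BTG2, MDM2 and SESN2) were not in vector, against 46.2%. With CPT 5 of 6 were in E669Q and not in vector, against 55.8%, and none in vector alone, against 6.44%, at depths of 2.22 and 1.09. E669Q and wild-type/CPT shared GADD45A, MDM2 P1 and SESN2, and GADD45B, BTG2 and PPM1D were in E669Q alone, 3 of 6 regions against 57.3%. None was in wild-type SLFN11 alone, against 5.87%. With DMSO these 2 lines shared GADD45A, BTG2, PPM1D and SESN2. GADD45B and MDM2 P1 were then in wild-type SLFN11 alone, 28.6% of 7 against 38.2%, and the downstream MDM2 interval in E669Q alone, 14.3% against 13.6%.

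Between 2 and 20 kb from the start sites lay 5 more regions, near GADD45A, GADD45B, BTG2, SESN2 and BBC3. The number of intervals within 20 kb, start sites included, was 5 and 3 in vector/DMSO and CPT, 8 and 4 in wild-type SLFN11, and 7 and 9 in E669Q. The whole lists held 5246 and 5806 intervals in the vector line, 11651 and 5562 in wild-type SLFN11, and 8365 and 12337 in E669Q. A region 15.6 kb downstream of GADD45A, on the side of its neighbour GNG12, was listed with pileups of 13 in vector/DMSO, 9 in vector/CPT, 16 in wild-type/DMSO and 12 in E669Q/CPT. In both vector and wild-type SLFN11 libraries with DMSO its fold (9.02 and 10.04) exceeded that of the GADD45A start itself (5.19 and 6.35). In vector/CPT and E669Q/CPT it was the other way round, with 6.46 against 6.97 and 7.02 against 8.03. It was missing from wild-type/CPT and E669Q/DMSO, where 9.05 (6.71 to 11.9) and 11.1 (8.22 to 14.6) fragments would be present after scaling and 6 were needed. These estimates use only the libraries that list the region, which raises them. Their intervals leave out the counting error of the library without it. Of all regions held by those 4 libraries, 5.74% were missing from both others.

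A region 12.0 kb upstream of SESN2, on the side of its neighbour ATP5IF1, went against the order of depth. It was listed in 5 libraries, with pileups of 6 in both vector libraries, 5 in wild-type/CPT, 8 in E669Q/DMSO and 18 in E669Q/CPT, and was missing from wild-type/DMSO, the second deepest. There 10.997 fragments (7.96 to 14.8) would be present after scaling and 7 were needed. This estimate too uses only the libraries that list the region, and its interval leaves out the counting error of wild-type/DMSO. Only 17 of 2166 regions held by those 5 libraries, 0.785%, were missing from that library. This region was singled out after its values were seen. In that same library the SESN2 start site was at its highest depth-scaled pileup, 8.71. The remaining regions were each in 1 library: one 6.45 kb downstream of BTG2 in wild-type/DMSO (fold 7.05), one 18.9 kb upstream of GADD45B in E669Q/DMSO (5.11) and the BBC3 region given above. The BTG2 region also went against the order of depth, being missing from E669Q/CPT, the deepest library. There 14.2 fragments (7.08 to 25.4) would be present after scaling and 7 were needed. That estimate rests on the 1 library that lists the region, which raises it, so the absence is not read as a difference. Regions in 1 library alone made up 38.1% of all merged regions.

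**Figure D5:**
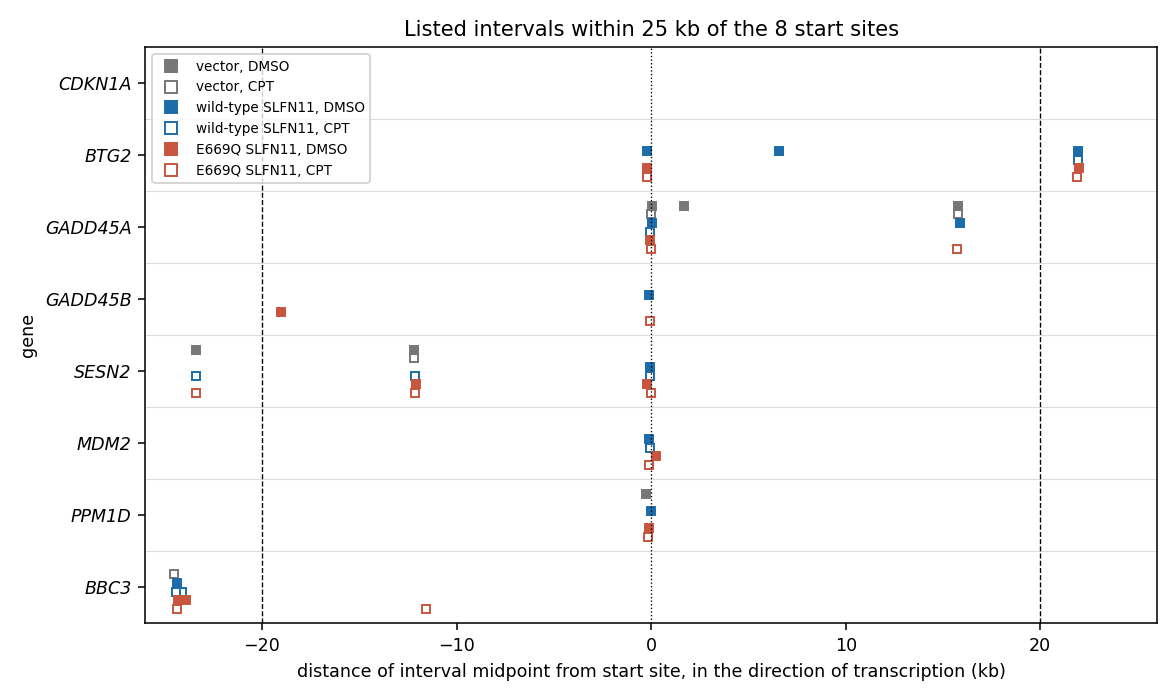
Midpoints of listed intervals around the 8 start sites (rows), by distance in the direction of transcription in kb (horizontal axis), coloured by line, filled for DMSO and open for CPT. Dashed lines mark 20 kb; the SESN2 region 12.0 kb upstream was in every library except wild-type/DMSO.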

How the data were processed

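ATAC-seq was done on 6 K562 libraries, 1 per group. Per the submitters' processing notes, the tools were MACS2 2.1.2, Picard 2.9.2, Bowtie2 2.2.6, SAMtools 1.8 and Trimmomatic 0.39, on hg19, with no settings. How the transposase offset and duplicates were handled is likewise not given. The authors deposited per library a fold enrichment (a ratio over local background), a −log10 p, a −log10 q and a score, which is 10 times the −log10 q. The lowest −log10 q was 2.00 to 2.01.

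Entries sharing an interval were joined, keeping the strongest. Overlap meant at least 1 bp. Coordinates are 1-based. Fold and −log10 p gave whole summit pileups (pseudocount 1, tolerance 0.001 on −log10 p) for 98.6% to 99.2% of entries, and depth from the lowest background over the step between backgrounds. Backgrounds missed a whole number of steps by a mean of 0.11 to 0.18 of a step. The misfit was largest in E669Q/CPT (0.18) and wild-type/DMSO (0.16), the deepest libraries, so depth is approximate and least certain there. Each step was the best of many tried, which lowers the misfit. No misfit of values without a common step was computed beside it. Pileups carry exact Poisson 95% intervals. For a site missing from a library, the summed pileup of the libraries that list it was scaled by depth and set beside the smallest pileup that passes that list's lowest −log10 p over the same relative background. The interval of the scaled pileup covers the counting error of that sum only, not that of the library without the site. Fold is compared within a list. Recovery of pileups and overlap were checked on simulated lists, but the depth was not. All 8 members are named, and they and the lists were chosen with earlier results of these data known. Other genes of the pathway were not analysed here, for want of an hg19 annotation. Neighbouring genes and promoters came from RefSeq GRCh38.p14. Software was scipy 1.17.1, numpy 2.4.6, matplotlib 3.10.9 and pandas 2.3.3 under Python 3.11.15.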

Additional observations from a re-analysis of the deposited data

Results flagged for a closer look

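The number of the 8 genes with an open start site moved in different directions with CPT: by −1 for vector, by −3 for wild-type SLFN11 and by 1 for E669Q. Relative depth moved from 1.00 to 1.09, from 1.72 to 1.09 and from 1.33 to 2.22 in the same lines. The depth-scaled pileup at GADD45A also differed in direction, with log2 changes of 0.50, −0.18 and 0.10, but not when scaled by the median pileup of the regions found in all 6 libraries, where they were 0.62, 0.03 and 0.32. Neither difference between lines was tested, since each group is 1 library.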

How the results depend on the processing

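With replicate numbers as the block, no paired analysis was possible because each group holds 1 library. Libraries of the same line were paired for the test at GADD45A. With a −log10 q of at least 5, the number of genes with an open start site was 1 in vector/DMSO, 1 in wild-type/CPT and 1 in E669Q/DMSO, and intervals within 20 kb numbered 2, 1 and 1. With a fold of at least 5, intervals within 20 kb were 3 in vector/DMSO and 2 in wild-type/CPT. No share of the whole lists is given for these thresholds, so the counts are not read as particular to these genes. In lists matched to the 5246 strongest intervals, E669Q held 1 gene with DMSO and 3 with CPT, and 1 and 5 intervals within 20 kb. Scaled to the shallowest depth, an alternative chosen after seeing the data, E669Q/CPT held 3 genes and 5 intervals. The other counts per library stayed within 1.5 times. Counts of libraries per gene also moved. BTG2 went from 3 libraries to 1 with a −log10 q or a fold of at least 5, and to 0 at matched length and at the shallowest depth. GADD45B went from 2 to 0 at matched length and to 1 under the other 3 of these settings. SESN2 went from 4 to 2 under all of them except the fold (3), and MDM2 from 4 to 2 with the −log10 q. Windows of 1 kb or 5 kb and a summit inside the window moved no count by more than 1.5 times. CDKN1A and BBC3 had no start-site interval under any of these settings. The mean log2 change at GADD45A was −0.041 to 0.30 without each line in turn. It reversed without the vector line, at −0.041. Scaled by the median pileup of the regions found in all 6 libraries it was 0.32, against 0.14, and positive in all 3 lines. Depth limits what absence shows: where BTG2, GADD45B, SESN2 or MDM2 P1 was not listed, the interval of the scaled pileup included the number needed. For PPM1D it lay above. That estimate is raised by using only libraries that list PPM1D, and it leaves out the counting error of the library without it. Of all regions held by the libraries that list PPM1D, 9.93% were missing from both others.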

Other observations

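Just beyond 20 kb lay regions that belong to no count above. A region 21.7 kb downstream of BTG2 was listed in each of the 4 libraries that carry SLFN11 but not in the vector lists, with pileups of 8 and 9 fragments in wild-type/DMSO and CPT and of 6 and 10 in E669Q. The same pattern was shown by 3.09% of all merged regions. Scaled to the vector libraries the BTG2 region would have 5.18 fragments with DMSO (95% interval 3.57 to 7.28), where 5 were needed. With CPT it would have 5.63 (3.88 to 7.91), where 6 were needed. Both intervals include the number needed, so the absence from the vector lists is within counting error. A region 24.0 kb upstream of BBC3 was in every library except vector/DMSO. There 8.45 fragments (6.49 to 10.8) would be present after scaling and 8 were needed, so this absence too is within counting error. A region 23.3 kb upstream of SESN2 was in vector/DMSO, wild-type/CPT and E669Q/CPT. It was missing from wild-type/DMSO, the second deepest, where 11.2 fragments (7.43 to 16.2) would be present after scaling and 7 were needed. That estimate uses only the libraries that list the region, which raises it. Its interval leaves out the counting error of wild-type/DMSO. In vector/CPT and E669Q/DMSO the interval included the number needed. The regions just beyond 20 kb were chosen after their values were seen.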
